A study of Mus musculus with 2 samples.

Results

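Levels of 9 transcription factor genes of the monocyte to macrophage transition were followed in cells of mouse skin wounds: Maf, Irf8, Klf4, Spi1, Cebpb, Nr4a1, Id2, Id3 and Hes1. They were taken by symbol from the 31053 genes listed for both libraries. Each symbol was found once, and each gene had at least 20 unique molecular identifiers (UMIs, counts of single captured RNA molecules) over both libraries, the minimum set for calling a gene measured. The diabetic library held cells of wounds of diabetic mice, and the non-diabetic library held cells of wounds of non-diabetic mice. Both were taken 6 days after injury, digested with enzymes and run as single-cell 3′ RNA libraries, and each of the 2 libraries pooled 2 mice. The labels count the pooled mice by strain but name neither the strains nor the diabetic model nor the ages, so diabetes and strain cannot be told apart. With 1 library per group no test between groups was possible: every interval below is a 95% interval that covers counting error only, not the spread between mice.

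Monocytes enter a wound from the blood with high surface Ly6C, encoded by Ly6c2, and many of them then turn into macrophages, a part of which make the complement C1q chains C1qa, C1qb and C1qc. PU.1 (encoded by Spi1), C/EBPβ (Cebpb), IRF8 and KLF4 are the factors that set and keep monocyte identity, c-Maf is a factor of mature and tissue-resident macrophages, and NR4A1 is an orphan nuclear receptor that mice need to form Ly6C-low monocytes and that stimulation induces within a short time. ID2 and ID3 lack a DNA-binding domain and hold E proteins away from DNA, and HES1 is a repressor switched on by Notch signalling.

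RefSeq promoters were matched for 6 of the 9 genes, Irf8, Klf4, Cebpb, Nr4a1, Id2 and Id3, and not for Maf, Spi1 and Hes1. Irf8 had 2 starts, 2281 bases apart, and the others had 1, which gave 7 windows. The windows of Id2 and Id3 lie partly or wholly in exons of those genes. The 250 bases before the RefSeq start (GRCm38.p6) were searched on both strands for 5 motifs: the cyclic AMP response half-site TGACG and its full palindrome TGACGTCA, which contains the half-site, the interferon-gamma activated sequence TTCNNNGAA, its longer-spaced form with 4 bases between TTC and GAA, and the NR4A monomer site AAAGGTCA. The half-site was present 4 times before Nr4a1, 3 times before Cebpb, and once each before Klf4 and Id3, and was not found before Id2 or Irf8. It occurred in 17.8% of 32851 promoters of the same length. TTCNNNGAA was found in 1 of the 7 windows, that of the upstream Irf8 start, at 2 places, and in 7.02% of all promoters. The full palindrome (1.55% of promoters), the longer-spaced form (5.85%) and the NR4A site (1.34%) were in none of the 7 windows. A match of letters is no evidence of binding. The windows of 4 genes are shown: Nr4a1, Cebpb and Klf4 because they hold the half-site and followed the immediate early genes to differing extents over cell clusters, as given with the results, and Irf8 because it alone holds the interferon-gamma motif. Id3 also holds the half-site and is not shown. With 1 half-site its r with the immediate early genes was 0.76, against 0.85 for Nr4a1, 0.51 for Cebpb and 0.45 for Klf4. Without a half-site, Id2 had an r of 0.10 and Irf8 an r of -0.31. A link between half-sites and these values was not tested. Each is written 5′ to 3′ on its gene's strand, with capitals marking TGACG or its reverse complement in the first 3 and TTCNNNGAA in the fourth.
Nr4a1, chr15:101266596-101266845, plus strand, in an intron of the longer Nr4a1 gene model: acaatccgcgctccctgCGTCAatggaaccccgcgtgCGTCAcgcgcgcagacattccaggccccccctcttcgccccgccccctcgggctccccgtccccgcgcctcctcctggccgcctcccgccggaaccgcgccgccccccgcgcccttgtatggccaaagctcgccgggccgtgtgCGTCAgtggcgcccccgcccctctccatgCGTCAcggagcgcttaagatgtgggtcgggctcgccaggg
Cebpb, chr2:167688665-167688914, plus strand, in an intron of Tmem189: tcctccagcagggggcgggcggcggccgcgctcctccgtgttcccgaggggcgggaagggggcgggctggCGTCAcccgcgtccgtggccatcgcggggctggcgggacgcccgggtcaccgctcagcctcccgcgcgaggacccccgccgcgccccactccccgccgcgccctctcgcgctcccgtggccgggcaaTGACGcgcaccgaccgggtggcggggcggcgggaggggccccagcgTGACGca
Klf4, chr4:55532476-55532725, minus strand, intergenic: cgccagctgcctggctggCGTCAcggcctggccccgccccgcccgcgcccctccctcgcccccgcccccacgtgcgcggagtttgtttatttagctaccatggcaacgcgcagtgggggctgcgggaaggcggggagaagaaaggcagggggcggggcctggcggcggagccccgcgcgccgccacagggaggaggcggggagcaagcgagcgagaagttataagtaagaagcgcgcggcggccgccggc
Irf8, upstream start, chr8:120736108-120736357, plus strand, in an intron of the gene model Gm20388: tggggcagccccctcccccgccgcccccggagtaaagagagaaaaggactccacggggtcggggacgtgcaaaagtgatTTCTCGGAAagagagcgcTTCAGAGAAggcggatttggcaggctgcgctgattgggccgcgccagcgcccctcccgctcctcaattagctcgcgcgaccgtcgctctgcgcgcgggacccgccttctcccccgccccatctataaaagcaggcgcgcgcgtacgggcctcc

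The diabetic library had 2214 barcodes and 31730014 UMIs, and the non-diabetic library had 2026 barcodes and 17559986 UMIs. A cell was kept if it showed 500 or more genes and less than 10% of its UMIs were mitochondrial, leaving 1755 diabetic cells (30435047 UMIs, median 16314 per cell) and 1123 non-diabetic cells (15429273 UMIs, median 14079 per cell). Mitochondrial UMIs made up 10% or more in 20.2% of diabetic and 43.9% of non-diabetic barcodes, and the libraries shared 6 barcodes. For the kept cells, levels are given as CPM, the UMIs of a gene scaled to the same total in each sum, and the 12 macrophage markers summed to 9504 CPM in diabetic and 5188 CPM in non-diabetic cells, while the 8 classical monocyte markers summed to 3504 CPM in diabetic and 5215 CPM in non-diabetic cells. The 10 neutrophil markers summed to 4650 CPM in diabetic and 285 CPM in non-diabetic cells, and the 6 fibroblast markers to 18.0 CPM in diabetic and 238 CPM in non-diabetic cells. These sums need not be RNA of other cells. The neutrophil marker S100a8 was a leading gene of a cluster led by Stfa3 (307 diabetic cells) that met no marker set, and the neutrophil-like cluster held 19 diabetic cells and 1 non-diabetic cell. The part of other cells' RNA in the values below was not tested, apart from the removal of 25 diabetic and 16 non-diabetic cells with 5 or more fibroblast or endothelial UMIs, which left the members past 1.5-fold in all kept cells at 1 higher and 1 lower.

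Over all kept cells, Id2 was the member that was higher in the diabetic library by at least 1.5-fold and Nr4a1 the member that was lower by that much. Id2 was at 551 CPM (543 to 560) in diabetic cells, against 313 CPM (304 to 322) in non-diabetic cells, 1.76-fold higher (1.71 to 1.82). Nr4a1 was at 405 CPM (397 to 412) in diabetic cells, against 704 CPM (690.4 to 717) in non-diabetic cells, 1.74-fold lower (1.69 to 1.78). The intervals of neither gene met between the libraries. Among all 12337 measured genes, 18.7% were at least 1.5-fold higher and 12.9% at least 1.5-fold lower in diabetic cells, so 1 higher and 1 lower of 9 was near that background. Among the 3045 genes at 50 CPM or more, the range of all members but Hes1, the shares were 8.41% higher and 11.5% lower. The median log2 ratio of the members was 0.10, and that of all measured genes was 0.12.

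The other 7 members stayed within 1.5-fold. Maf had 239 CPM in diabetic and 167 CPM in non-diabetic cells (log2 ratio 0.52, 0.45 to 0.58), and Klf4 had 324 CPM in diabetic and 262 CPM in non-diabetic cells (0.31, 0.25 to 0.36). Irf8 had 110.1 CPM in diabetic and 91.8 CPM in non-diabetic cells (0.26), and Spi1 had 462 CPM in diabetic and 432 CPM in non-diabetic cells (0.10). These 4 genes had the higher value in the diabetic library and the next 3 in the non-diabetic library. Cebpb had 2231 CPM in diabetic and 2498 CPM in non-diabetic cells (-0.16), and Id3 had 196 CPM in diabetic and 263 CPM in non-diabetic cells (-0.42). Hes1 had 418 diabetic and 278 non-diabetic UMIs, which came to 13.7 CPM in diabetic and 18.0 CPM in non-diabetic cells (-0.39, -0.61 to -0.17).

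To follow the members from Ly6c2-positive to C1q-positive cells, each kept cell with at least 5000 UMIs was thinned to 5000 UMIs, which left out 94 diabetic and 141 non-diabetic cells. A cell with 1 or more Ly6c2 UMIs was called Ly6c2-positive and one with 3 or more C1q UMIs C1q-positive, and the unthinned UMIs of each class were then summed. The Ly6c2-positive C1q-low class held 242 of 1661 diabetic cells (14.6%) and 258 of 982 non-diabetic cells (26.3%). The class positive for both held 93 diabetic cells (5.60%) and 51 non-diabetic cells (5.19%), and the C1q-positive class without Ly6c2 held 610 diabetic cells (36.7%) and 161 non-diabetic cells (16.4%). The remaining 716 diabetic and 512 non-diabetic cells were low for both. These classes are ranges of counts and not cell types: 159 diabetic and 124 non-diabetic cells had exactly 1 Ly6c2 UMI, and 137 diabetic and 84 non-diabetic cells lay just under the C1q threshold with 1 to 2 UMIs. In droplet data free RNA also gives UMIs to cells that do not express a gene. In a cluster led by Cd209a and called conventional dendritic cell-like from its markers, 7 of 54 diabetic and 10 of 116 non-diabetic cells counted as Ly6c2-positive, where 20.2% of all classed diabetic and 31.5% of all classed non-diabetic cells did. C1q-positive were 7.41% of the diabetic and 6.90% of the non-diabetic cells of that cluster, where 42.3% of all classed diabetic and 21.6% of all classed non-diabetic cells were.

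The classes were made of different clusters in each library. Diabetic Ly6c2-positive C1q-low cells included cells of the clusters led by Lyz1 (37 cells) and Ifitm1 (29), and non-diabetic ones included cells of those led by Rsad2 (75 cells) and Inhba (40). Diabetic C1q-positive cells came mostly from clusters led by Cd163 (187 cells), Lyz1 (130) and Ighm (99), and non-diabetic ones from those led by Inhba (45 cells), Rsad2 (29) and Fabp4 (27). In the class positive for both, Ighm (25 cells), Lyz1 (16) and Cd163 (16) led in diabetic cells, and Rsad2 (23) and Inhba (8) in non-diabetic cells. The values by class are therefore those of different mixtures of clusters in each library.

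**Figure D1:**
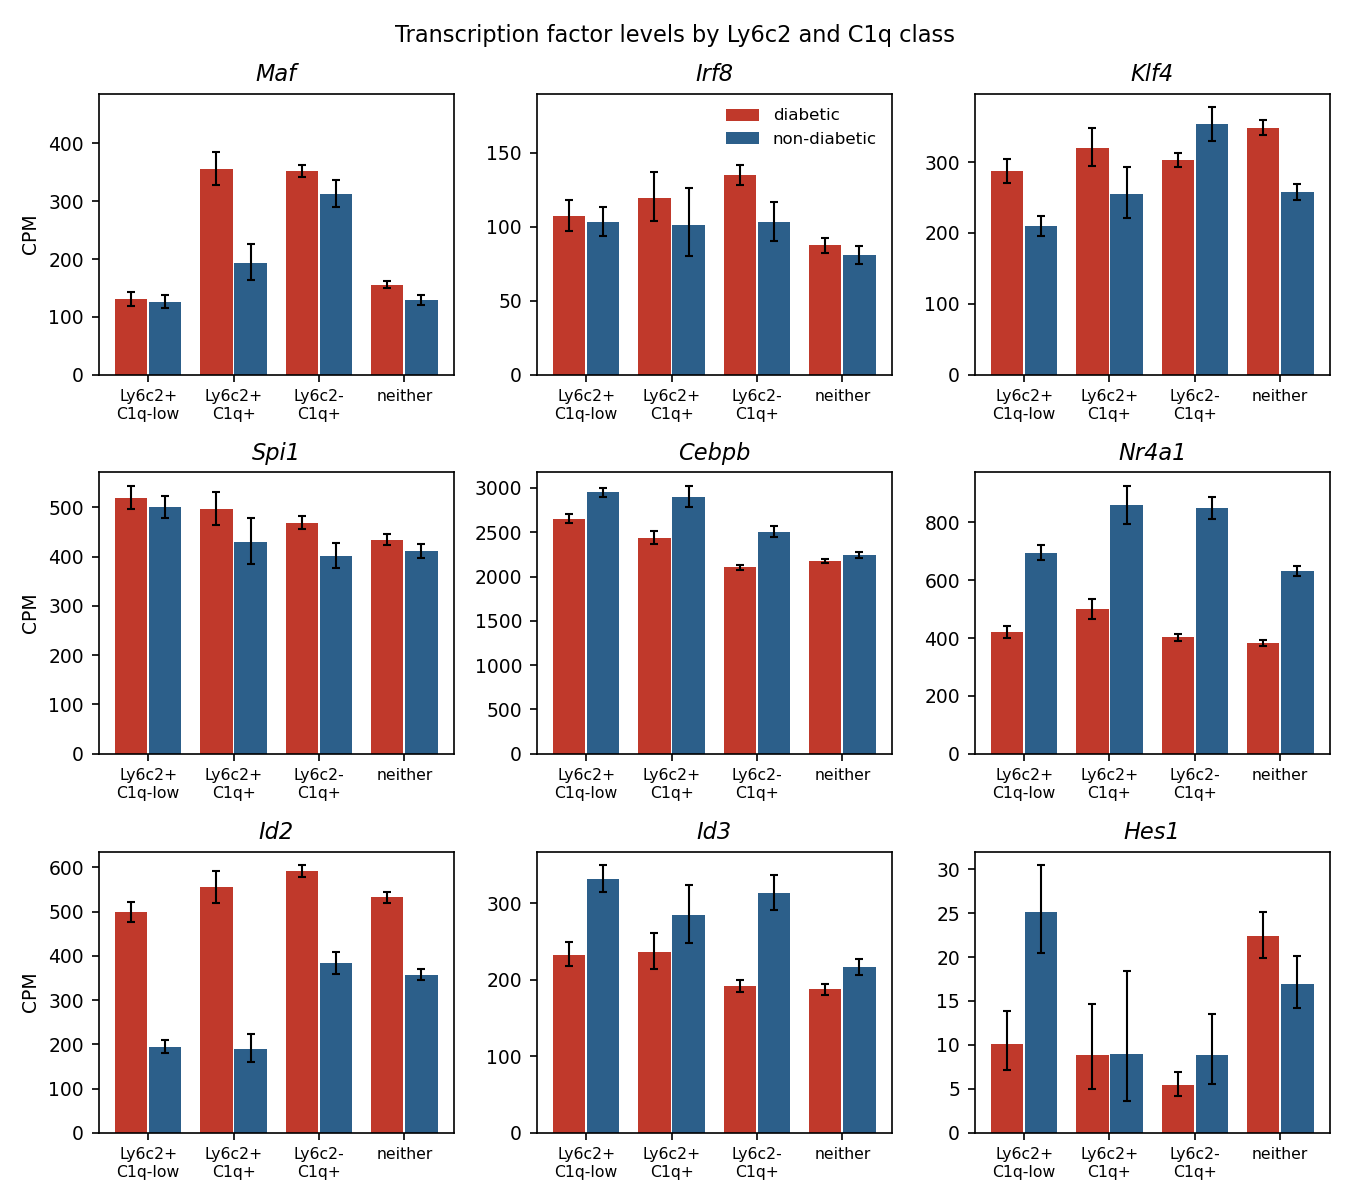
Bars give the level of each of the 9 genes in CPM (vertical axis, linear, from 0) in the 4 Ly6c2 and C1q classes (horizontal axis) of the diabetic and the non-diabetic library, and error bars the 95% counting interval. Maf was at 352 CPM in C1q-positive and 131 CPM in Ly6c2-positive C1q-low diabetic cells, and at 313 CPM in C1q-positive and 126 CPM in Ly6c2-positive C1q-low non-diabetic cells, and the diabetic Nr4a1 bar is the lower one in all 4 classes.

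Maf, a basic leucine zipper factor gene at chr8:115682942-115707794 on the minus strand (mm10, GENCODE M21, as for the other gene positions), was higher in C1q-positive than in Ly6c2-positive C1q-low cells of both libraries. In diabetic cells Maf was at 131 CPM in the Ly6c2-positive C1q-low class, 356 CPM in the class positive for both and 352 CPM in the C1q-positive class. In non-diabetic cells the levels in that order were 126, 193 and 313 CPM. The C1q-positive level was 2.69-fold the Ly6c2-positive level in diabetic cells (2.45 to 2.96) and 2.48-fold in non-diabetic cells (2.21 to 2.78). In cells positive for both, the diabetic level was close to that of C1q-positive cells and the non-diabetic level lay between those of the other 2 classes. There the diabetic level was 1.84-fold the non-diabetic level (log2 ratio 0.88, 0.62 to 1.15), whereas the log2 ratio was 0.05 in Ly6c2-positive C1q-low and 0.17 in C1q-positive cells. Cells positive for both were not matched for C1q or Ly6c2: C1qa was 2.01-fold, C1qb 1.72-fold and C1qc 1.88-fold higher in diabetic cells, and Ly6c2 2.17-fold lower. In the C1q-positive class C1qa was 1.74-fold, C1qb 1.70-fold and C1qc 1.69-fold higher. The part of these differences in the Maf ratios was not tested.

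Maf also followed the amount of C1q. Over 5 bins of thinned C1q UMIs (0, 1 to 2, 3 to 9, 10 to 29, 30 or more), Maf was at 145, 184, 220.4, 299 and 439 CPM in diabetic cells and at 125, 149.9, 224, 233 and 499 CPM in non-diabetic cells. It was higher in each bin than in the one before in both libraries. No other member did so in both. The top bin was mostly clusters led by Cd163 (41.8% of its 318 cells) and Ighm (22.0%) in diabetic cells, and its 43 non-diabetic cells came chiefly from those led by Cd163 (25.6%) and Rsad2 (23.3%). In thinned cells, the share with at least 1 Maf UMI was 28.1% in diabetic and 32.9% in non-diabetic Ly6c2-positive C1q-low cells, 66.7% in diabetic and 58.8% in non-diabetic cells positive for both, and 69.8% in diabetic and 65.2% in non-diabetic C1q-positive cells. In the dendritic cell-like cluster, 1 of 54 diabetic and 3 of 116 non-diabetic cells had one.

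**Figure D2:**
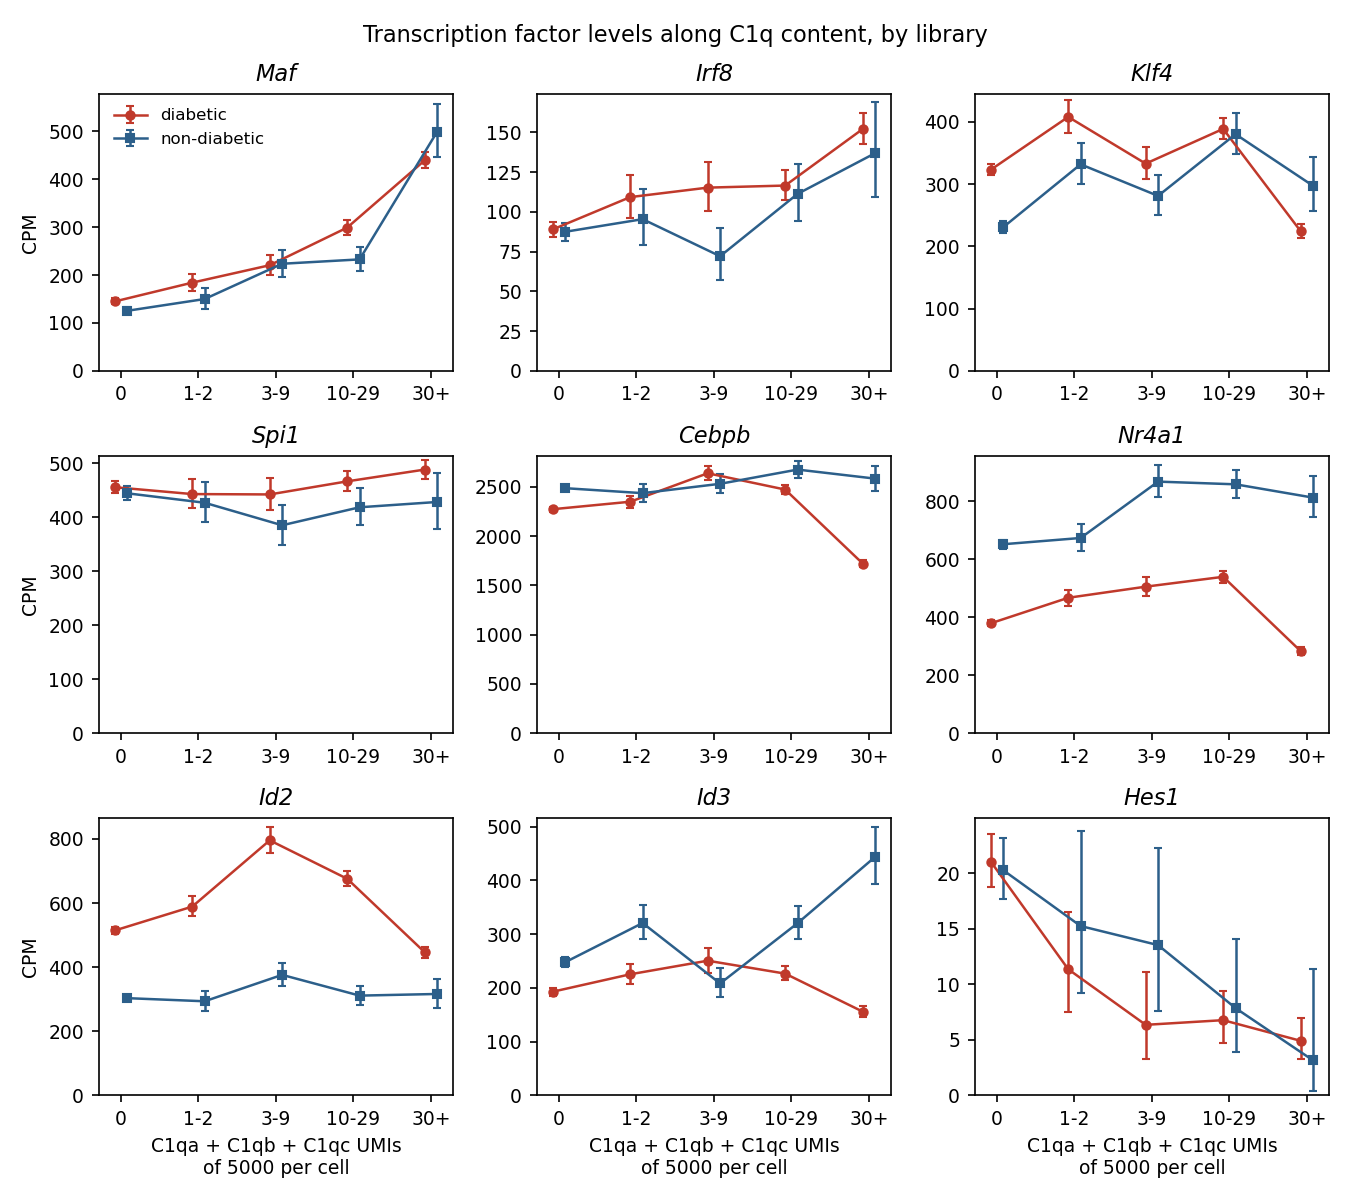
Level of each of the 9 genes in CPM (vertical axis, linear) over 5 bins of C1q UMIs per thinned cell (horizontal axis, low to high) in the diabetic and the non-diabetic library, with 95% counting intervals. Maf is at 439 CPM in diabetic and 499 CPM in non-diabetic cells of the top bin, its highest in both, while Nr4a1, Cebpb, Klf4 and Id2 are lower in the top diabetic bin than in the one before it.

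Counted at 1.5-fold, C1q-positive over Ly6c2-positive C1q-low cells had 1 member higher (Maf) and 1 lower (Hes1) in the diabetic library, where 20.8% of 10534 measured genes were higher and 7.47% lower. In the non-diabetic library 3 members were higher (Maf, Id2 and Klf4) and 1 lower (Hes1), where 20.2% of 9166 measured genes were higher and 7.70% lower. With only 9 members, none of these counts is read as departing from the share of all genes. The median log2 ratio of the members was -0.07 in diabetic and 0.00 in non-diabetic cells, and that of all measured genes was 0.16 in diabetic and 0.13 in non-diabetic cells.

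Spi1 (chr2:91082390-91115756, plus strand), which opens chromatin at myeloid enhancers, and Cebpb (chr2:167688915-167690418, plus strand), which in mice is needed for Ly6C-low monocytes to survive, stayed within 1.5-fold along these classes. Spi1 was at 520.1, 497 and 469 CPM in diabetic cells from Ly6c2-positive through both to C1q-positive, and at 501, 430.0 and 401 CPM in non-diabetic cells. Cebpb was at 2652, 2437 and 2105 CPM in diabetic and at 2951, 2902 and 2508 CPM in non-diabetic cells. Both genes were thus lower in C1q-positive than in Ly6c2-positive C1q-low cells in each library: the log2 ratios of Spi1 were -0.15 in diabetic and -0.32 in non-diabetic cells, and those of Cebpb were -0.33 in diabetic and -0.23 in non-diabetic cells. Over the C1q bins Spi1 stayed between 442 and 488 CPM in diabetic and between 385 and 444 CPM in non-diabetic cells. Cebpb was at 2472 CPM in the fourth and 1722 CPM in the top diabetic bin, and at 2675 CPM in the fourth and 2583 CPM in the top non-diabetic bin. Of 8 genes known to depend on PU.1, 1 was at least 1.5-fold higher and 1 lower in all diabetic cells, with a median log2 ratio of -0.13. Among all measured genes, 18.7% were higher and 12.9% lower there.

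Irf8 (chr8:120736358-120756694, plus strand), which in mice directs progenitors toward monocytes and dendritic cells, was at 107, 119.5 and 135 CPM from Ly6c2-positive through both to C1q-positive diabetic cells, and at 103, 101 and 103 CPM in non-diabetic cells. The C1q-positive level exceeded the Ly6c2-positive one by a log2 ratio of 0.33 in diabetic cells and by 0.00 in non-diabetic cells. In the C1q bins it was highest where C1q was highest in both libraries, at 152 CPM in diabetic and 137 CPM in non-diabetic cells.

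Klf4 (chr4:55527143-55532466, minus strand), a zinc finger factor gene needed in mice to form monocytes, was at 287, 320.2 and 302 CPM in the 3 diabetic classes and at 209, 255 and 353 CPM in the non-diabetic ones. The diabetic classes were close to each other (log2 ratio of C1q-positive to Ly6c2-positive 0.07), whereas the non-diabetic C1q-positive class was 1.69-fold higher (0.76, 0.62 to 0.90). The log2 ratio of diabetic to non-diabetic Klf4 was 0.46 in Ly6c2-positive C1q-low and -0.22 in C1q-positive cells, and the second turned to 0.08 without the Stfa3-led and Inhba-led clusters, each almost wholly of 1 library.

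Nr4a1 (chr15:101254269-101274795, plus strand) was lower in the diabetic library in all 4 classes. It was at 422, 500.1 and 403 CPM in diabetic cells from Ly6c2-positive through both to C1q-positive, and at 382 CPM in cells low for both. In non-diabetic cells it was at 695, 859 and 849 CPM in the same order, and at 632 CPM in cells low for both. The log2 ratios of diabetic to non-diabetic were -0.72, -0.78, -1.08 and -0.73, the third being 2.11-fold lower. All 4 were past 1.5-fold, in classes where 11.4%, 12.4%, 12.7% and 13.1% of measured genes were at least that much lower. Over the C1q bins Nr4a1 was at 378, 467, 505, 539 and 283 CPM in diabetic and at 651, 673, 867, 858 and 812 CPM in non-diabetic cells, so that the top bin was the lowest of the diabetic bins and the lowest non-diabetic bin was the one without C1q.

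Of the 2 inhibitors of E proteins, Id2 was higher in the diabetic library in all 4 classes, whereas the direction of Id3 depended on how cells were classed in 2 of them. Id2 (chr12:25093799-25097140, minus strand) was at 499, 555 and 591 CPM in diabetic cells from Ly6c2-positive through both to C1q-positive, against 194, 189 and 383 CPM in non-diabetic cells. The diabetic level was 2.56-fold higher in Ly6c2-positive C1q-low cells, 2.92-fold higher in cells positive for both and 1.54-fold higher in C1q-positive cells, in classes where 12.2%, 18.2% and 14.8% of measured genes were at least 1.5-fold higher. In cells low for both, where 19.3% of measured genes were higher, the log2 ratio was 0.57, just under 1.5-fold. The non-diabetic C1q-positive cells had 1.97-fold the Id2 level of the Ly6c2-positive C1q-low cells, and the diabetic ones had a log2 ratio of 0.24. Id3 (chr4:136143497-136145755, plus strand) was at 233, 236 and 191 CPM in the diabetic and at 332, 284 and 313 CPM in the non-diabetic classes, and its ratio passed 1.5-fold in C1q-positive cells, where diabetic cells were 1.63-fold lower. That log2 ratio of -0.71 ranged from -1.09 to -0.55 and stayed past 1.5-fold in 8 of 11 alternatives. In cells positive for both (log2 ratio -0.27) it turned to 0.14 with Ly6c2 at 2 UMIs, and in cells low for both (-0.21) to 0.11 when cells were classed without thinning. Of the E proteins and other Id genes, Tcf3, Tcf4, Tcf12 and Id1 were measured and none differed between libraries by 1.5-fold. Id4 had no UMI in either library.

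Hes1 (chr16:30064384-30067796, plus strand) had few UMIs and was lower in C1q-positive than in Ly6c2-positive C1q-low cells of both libraries. It had 62 UMIs (5.40 CPM) in C1q-positive diabetic cells, against 38 UMIs (10.1 CPM) in Ly6c2-positive C1q-low ones, 1.88-fold lower (1.22 to 2.85). In non-diabetic cells it had 21 UMIs (8.88 CPM) in the C1q-positive and 101 UMIs (25.1 CPM) in the Ly6c2-positive C1q-low class, 2.77-fold lower. Over the C1q bins it was at 21, 11.3, 6.34, 6.76 and 4.91 CPM in diabetic cells and at 20.3, 15.2, 13.5, 7.85 and 3.15 CPM in non-diabetic cells, the last from 2 UMIs. Ly6c2-positive C1q-low cells had 2.46-fold less Hes1 in the diabetic library, and in cells low for both the log2 ratio was 0.40 (0.10 to 0.71) the other way. That value was 0.26 without cells of 5 or more fibroblast or endothelial UMIs and turned to -0.04 without the Stfa3-led and Inhba-led clusters. Of 15 other genes of the Notch pathway, 12 were measured. In all diabetic cells 4 of them were at least 1.5-fold higher and 1 lower, beside 18.7% higher and 12.9% lower of all measured genes. The Notch genes were not recounted without cells of 5 or more fibroblast or endothelial UMIs, so the part of such cells in their values was not tested. Jag1, a Notch ligand, was at 32.7 CPM in diabetic and 13.5 CPM in non-diabetic cells. Rbpj, the DNA-binding partner of Notch, was at 302 CPM in diabetic and 418 CPM in non-diabetic cells, and Notch2, a receptor, was within 1.5-fold.

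**Figure D3:**
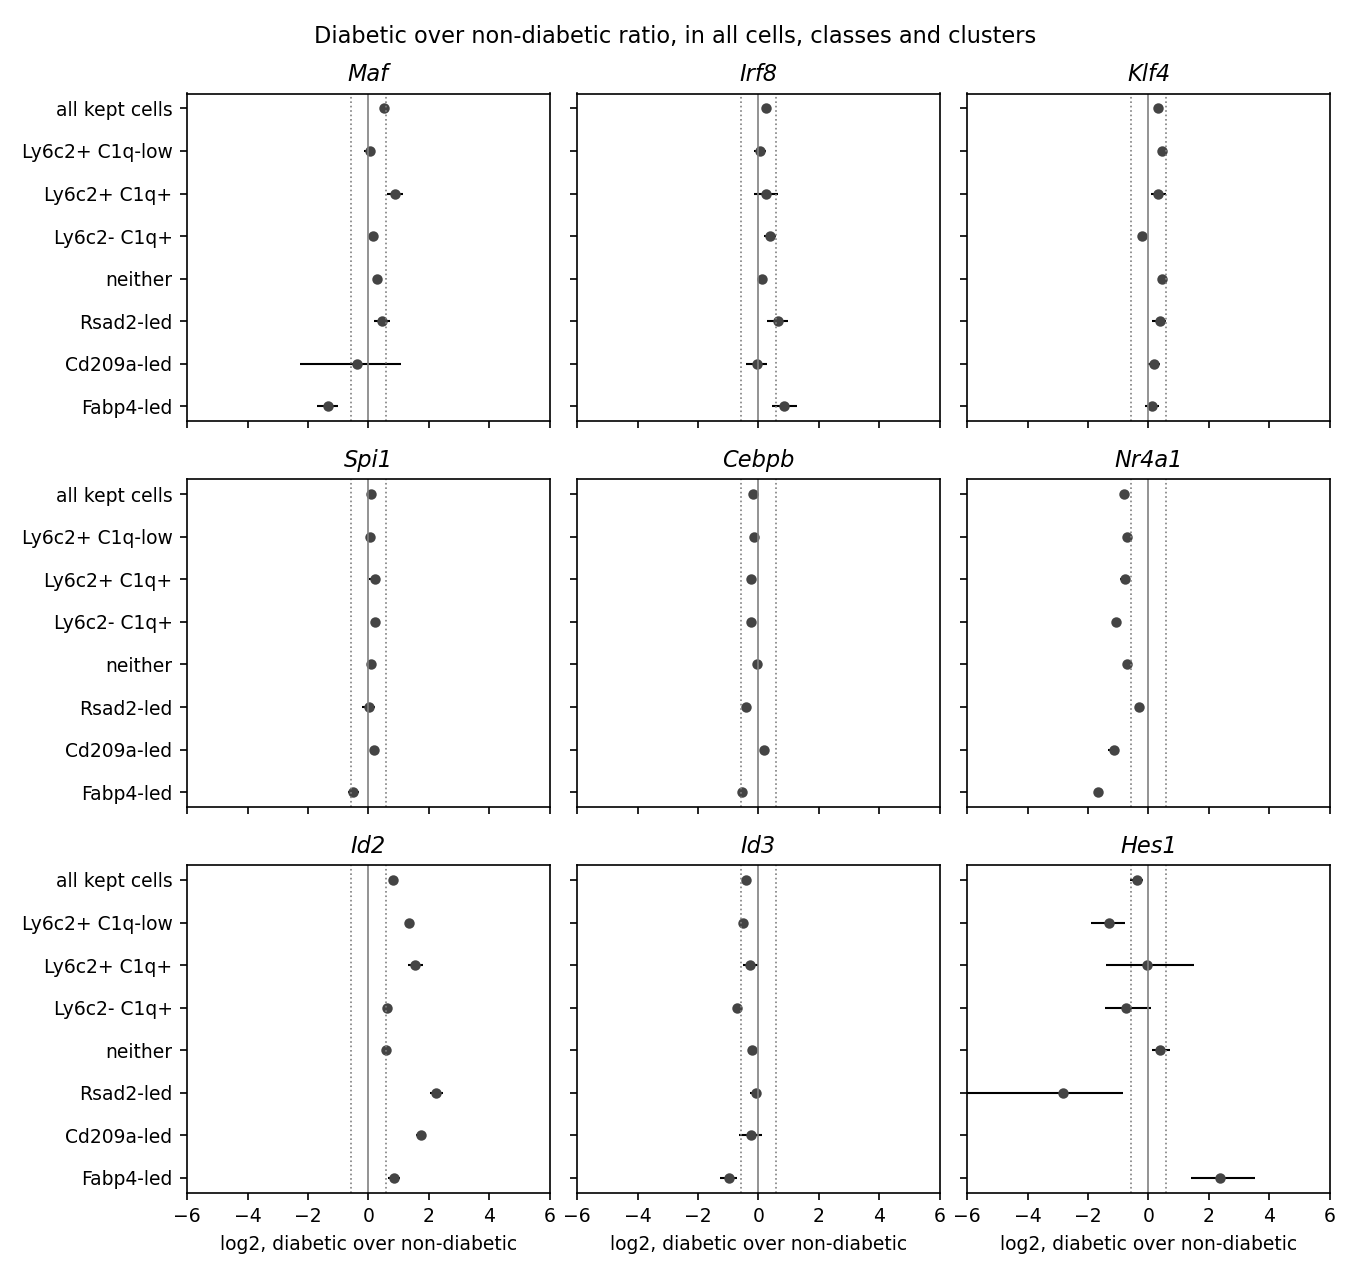
Log2 ratio of diabetic to non-diabetic level (horizontal axis, log2 scale) of each of the 9 genes in all kept cells, in the 4 Ly6c2 and C1q classes and in 3 clusters (rows), with 95% counting intervals and dotted lines at 1.5-fold; the Hes1 interval in Rsad2-led cells runs past the axis, and Hes1 in Cd209a-led cells was not measured. Id2 lies above 0 and Nr4a1 below 0 in all 8 rows, from 0.57 to 2.25 for Id2 and from -1.65 to -0.30 for Nr4a1, while Maf and Hes1 lie on both sides; Hes1 in Fabp4-led cells is at -0.28 instead of the plotted 2.37 without cells of 5 or more fibroblast or endothelial UMIs.

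Over the 4 classes and 9 members, 4 of 36 values were at least 1.5-fold higher in the diabetic library and 7 were lower, where 12.2%, 18.2%, 14.8% and 19.3% of measured genes were higher in the Ly6c2-positive C1q-low, double-positive, C1q-positive and double-low classes and 11.4%, 12.4%, 12.7% and 13.1% lower. The 4 higher values were Id2 in 3 classes and Maf in cells positive for both, and the 7 lower ones were Nr4a1 in 4 classes, Hes1 in Ly6c2-positive C1q-low cells and in C1q-positive cells, and Id3 in C1q-positive cells. The interval of Hes1 in C1q-positive cells, from -1.45 to 0.07, contained 0.

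Clustering of both libraries without the members among the defining genes gave 15 clusters, of which 10 held over 90% of their cells from 1 library, so that most clusters give no comparison between libraries. Groups of at least 30 cells of 1 cluster and 1 library numbered 18, and the levels of 16 of them are given. The highest Maf level was in the diabetic Cd163-led cells (440.0 CPM). Next were diabetic Ighm-led cells (364 CPM), whose interval met that of the diabetic Rsad2-led cells (314 CPM). The Cd163-led cluster as a whole, with 224 diabetic and 27 non-diabetic cells, carried 9 of 12 macrophage markers. It is left unnamed because fibroblast genes were among its leading genes, and these were not separated by library. The lowest Maf levels were 4.60 CPM in diabetic and 6.29 CPM in non-diabetic Cd209a-led, dendritic cell-like cells. Klf4 was highest in diabetic Ifitm1-led (571 CPM) and Lyz1-led cells (570.3 CPM), whose intervals met, and lowest in diabetic Ighm-led cells (104 CPM). Hes1 was highest in diabetic Fabp4-led cells (40.0 CPM), where 3 cells with endothelial or fibroblast UMIs gave 33 of its 37 UMIs, next in diabetic Ctsk-led cells (26.7 CPM), and near its lowest in diabetic Cd163-led cells (1.45 CPM).

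Irf8 ranged from 181 CPM in diabetic Rsad2-led to 63.2 CPM in non-diabetic Fabp4-led cells, and the intervals of neighbours in that order met except between diabetic Cd163-led cells (144 CPM) and the next group. Spi1 ran from 632 CPM in diabetic Cd209a-led to 159 CPM in non-diabetic Gm42418-led cells, which were of low depth. Cebpb ran from 3892 CPM in diabetic Ifitm1-led cells to 672 CPM in the Gm42418-led cells, and was also low in Cd209a-led cells, at 767 CPM in diabetic and 676 CPM in non-diabetic cells. Nr4a1 ran from 1341 CPM in non-diabetic Fabp4-led to 103 CPM in diabetic Ighm-led cells. Id2 ran from 1116 CPM in diabetic Ifitm1-led to 132 CPM in diabetic Ighm-led cells, and Id3 from 569 CPM in diabetic and 603 CPM in non-diabetic Rsad2-led cells to 38.5 CPM in diabetic Ighm-led cells. The diabetic Ighm-led cells were among the 3 lowest of the 16 groups for Nr4a1, Id2, Id3 and Klf4 and among the 3 highest for Maf, Irf8 and Spi1.

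**Figure D4:**
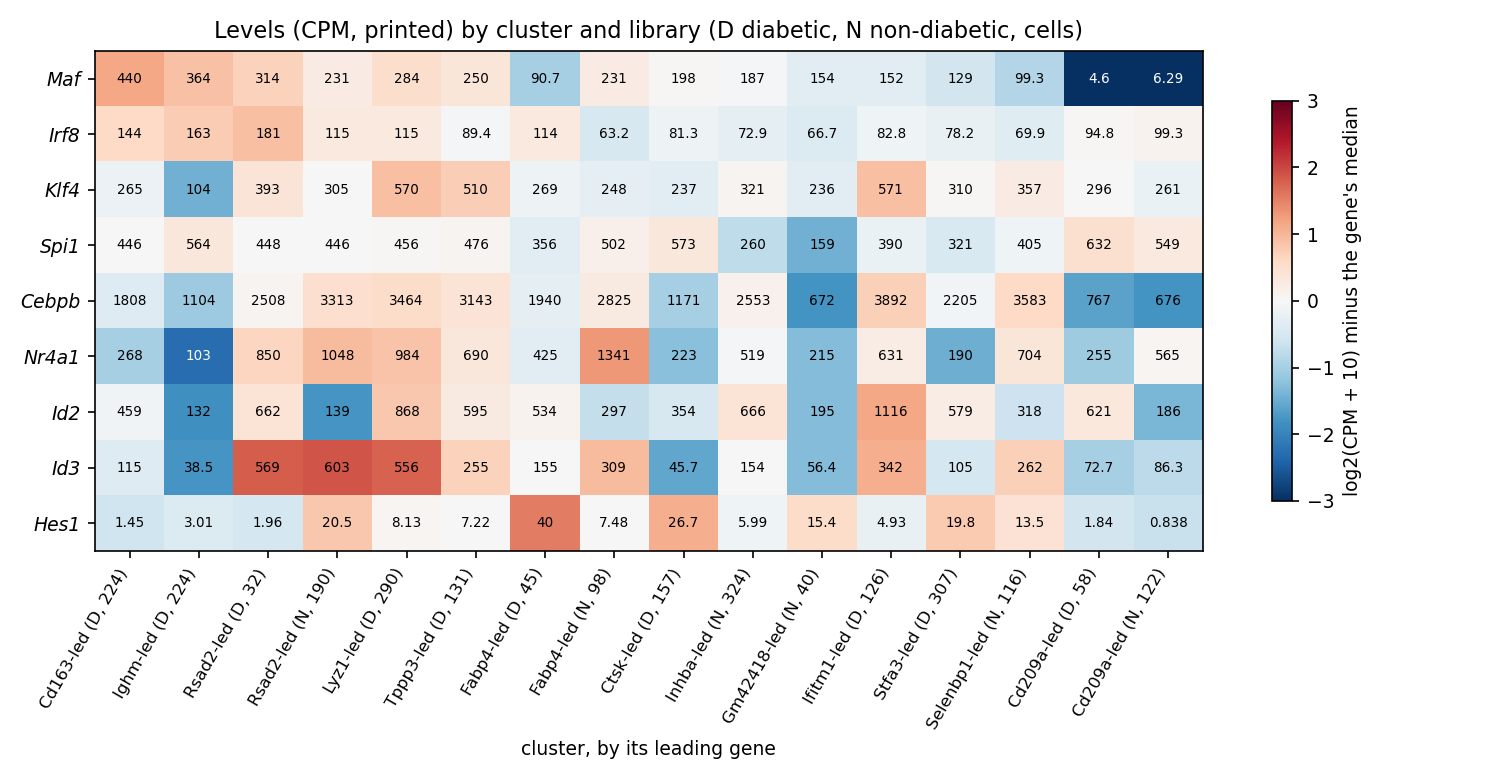
Each cell prints the CPM of 1 of the 9 genes (rows) in 1 of 16 groups of at least 30 cells of 1 cluster and 1 library (columns, with D for diabetic, N for non-diabetic and the number of cells), and its colour gives log2(CPM + 10) minus the gene's median over the groups. Nr4a1 and Id3 are both high in the Rsad2-led and diabetic Lyz1-led cells, and Maf is far below its median in both Cd209a-led groups.

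The clusters led by Rsad2, Cd209a and Fabp4, each with 30 or more cells from both libraries, allowed the libraries to be set side by side within a cluster. In the Fabp4-led cluster, whose leading genes included the endothelial genes Plvap and Emcn, the 4 endothelial markers summed to 735 CPM over 45 diabetic cells and to 25.1 CPM over 98 non-diabetic cells, with Cldn5 at 0 in the non-diabetic ones. Without 3 diabetic and 2 non-diabetic cells of 5 or more fibroblast or endothelial UMIs, that sum was 7.23 CPM in diabetic and 9.63 CPM in non-diabetic cells, and values in this cluster are given both ways below where they moved. Id2 was higher in diabetic cells in all 3. In Rsad2-led cells Id2 was at 662 CPM in diabetic and 139 CPM in non-diabetic cells, 4.76-fold higher (4.09 to 5.53). In Cd209a-led cells it was at 621 CPM in diabetic and 186 CPM in non-diabetic cells (3.35-fold), and in Fabp4-led cells it was at 534 CPM in diabetic and 297 CPM in non-diabetic cells (1.80-fold, and 2.38-fold without the 5 cells).

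Nr4a1 was lower in diabetic cells in all 3 clusters, with 850.3 CPM in diabetic and 1048 CPM in non-diabetic Rsad2-led cells, 255 CPM in diabetic and 565 CPM in non-diabetic Cd209a-led cells, and 425 CPM in diabetic and 1341 CPM in non-diabetic Fabp4-led cells. The ratio was within 1.5-fold in Rsad2-led cells (log2 -0.30) and 3.15-fold lower in Fabp4-led cells (2.52-fold without the 5 cells). The summed level of immediate early genes was also lower in the diabetic cells of each of the 3 clusters.

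Maf had no common direction within clusters. It was at 90.7 CPM in diabetic and 231 CPM in non-diabetic Fabp4-led cells, 2.54-fold lower (1.97-fold without the 5 cells). In Rsad2-led cells it was at 314 CPM in diabetic and 231 CPM in non-diabetic cells (log2 0.45), where C1qb was at 2123 CPM in diabetic and 695 CPM in non-diabetic cells. The Cd209a-led cells had 5 diabetic and 15 non-diabetic Maf UMIs. Irf8 was higher past 1.5-fold in Rsad2-led cells, at 181 CPM in diabetic and 115 CPM in non-diabetic cells, and in Fabp4-led cells, at 114 CPM in diabetic and 63.2 CPM in non-diabetic cells. The Irf8 ratio in Fabp4-led cells was 1.81-fold, and 1.64-fold without the 5 cells. Id3 was lower past 1.5-fold in Fabp4-led cells, at 155 CPM in diabetic and 309 CPM in non-diabetic cells (1.98-fold, and 2.16-fold without the 5 cells). Klf4 stayed within 1.5-fold in Fabp4-led cells, with a log2 ratio of 0.12 that moved to 0.51 without the 5 cells. Hes1 was 5.18-fold higher (2.67 to 11.6) in diabetic Fabp4-led cells, from 37 diabetic and 11 non-diabetic UMIs, but without the 5 cells it had 4 diabetic and 11 non-diabetic UMIs and a log2 ratio of -0.28 (-2.49 to 1.37). Rsad2-led cells had 1 diabetic and 53 non-diabetic UMIs, a ratio of 7.04-fold lower with an interval of 1.80 to 421.

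In total, 6 of the 26 measured pairs of member and cluster were at least 1.5-fold higher in diabetic cells and 5 were lower. Over all measured genes, 17.5% were higher and 15.8% lower in Rsad2-led cells, 9.22% higher and 16.1% lower in Cd209a-led cells, and 21.7% higher and 16.7% lower in Fabp4-led cells. Id2 made up 3 of the 6 higher values and Nr4a1 2 of the 5 lower ones, and 1 of the 6 was Hes1 in Fabp4-led cells, which rested on the 3 cells above.

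Over the 18 groups, the log2 levels of Nr4a1 and Id3 went together (Pearson r 0.88), as did those of Cebpb and Id3 (0.82), Klf4 and Id2 (0.69) and Cebpb and Nr4a1 (0.62), while Klf4 and Hes1 ran opposite (-0.52). The groups share libraries and differ in depth, so these values describe the 18 groups and carry no test. Maf followed the summed C1q level (0.81). The genes most like Maf in pattern were Cmklr1, C3ar1 and Rnase4 (0.92 each), out of 4323 compared. For Nr4a1 they were Zfp36 (0.95), Ccrl2 and Nfe2l2 (0.93 each), for Id3 Nfil3 (0.92), Nfe2l2 and Ccrl2 (0.89 each), and for Cebpb Cd14 (0.92), Rab20 (0.89) and Rbm7 (0.88). Spi1 was most like Tmem147 (0.96), Rack1 and Rbm22 (0.95 each), Id2 most like Sh3pxd2b, Klf7 (0.84 each) and Il1rn (0.82), and Klf4 most like Basp1 (0.83), Gpd2 and Ago2 (0.82 each). Irf8 was most like Unc93b1 (0.82), Fam26f and Ptrhd1 (0.81 each), and Hes1 had weaker matches, such as Glipr1 (0.69) and Itgal (0.62).

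Immediate early genes, which tissue digestion is known to induce, varied with several members. The 18 listed immediate early and heat shock genes summed to 18136 CPM in diabetic and 24765 CPM in non-diabetic kept cells, with none of 18 at least 1.5-fold higher and 8 lower (median log2 ratio -0.47). Among all measured genes, 18.7% were higher and 12.9% lower. Nfkbia, an inhibitor of NF-kappaB, was at 1527 CPM in diabetic and 3648 CPM in non-diabetic cells, and Junb, an AP-1 subunit, was at 1565 CPM in diabetic and 2547 CPM in non-diabetic cells. The summed level was lower in diabetic cells in all 4 classes, for example 17187 CPM in diabetic and 25951 CPM in non-diabetic C1q-positive cells, and in the 3 clusters compared, for example 13902 CPM in diabetic and 25728 CPM in non-diabetic Fabp4-led cells. Over the diabetic C1q bins it was at 18336, 20418, 20566, 20242 and 14029 CPM, lowest in the top bin as Nr4a1 was. Over the 18 groups the log2 sum had r 0.85 with Nr4a1, 0.76 with Id3, 0.51 with Cebpb, 0.45 with Klf4, 0.10 with Id2 and -0.04 with Maf. Its part in the lower diabetic Nr4a1 and Id3 was not tested.

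**Figure D5:**
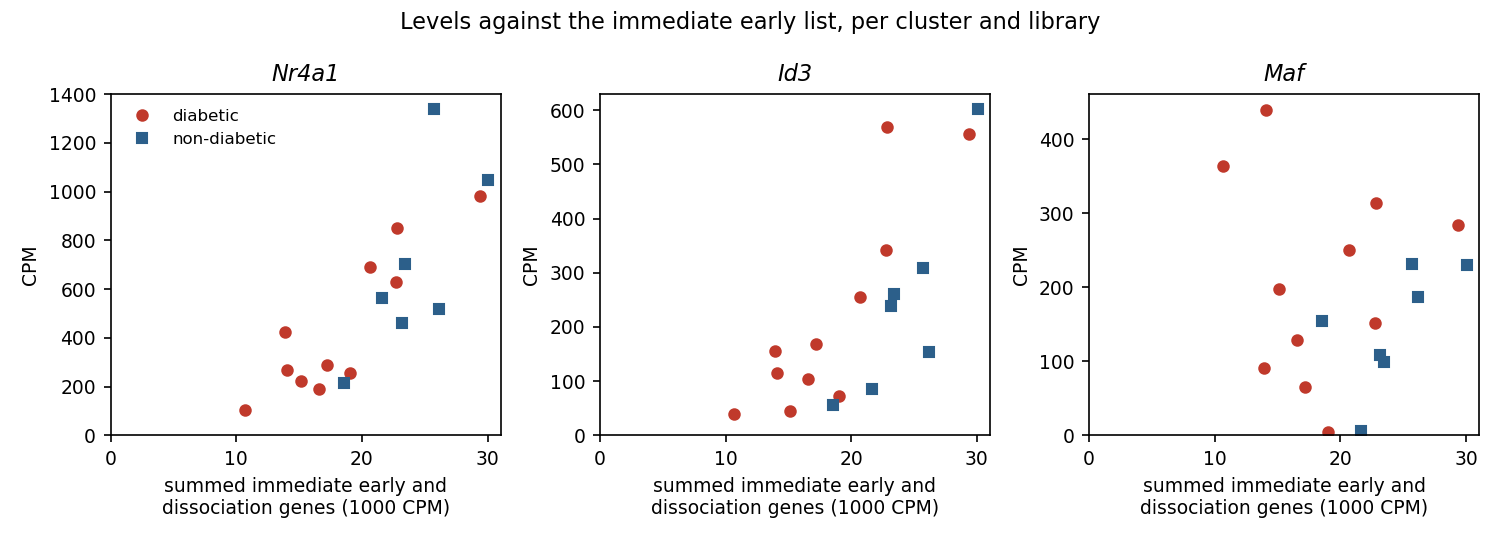
Each point is 1 of the 18 groups of at least 30 cells of 1 cluster and 1 library, with the summed level of the 18 immediate early and heat shock genes on the horizontal axis (in 1000 CPM) and the level of Nr4a1, Id3 or Maf on the vertical axis (CPM), both linear. Nr4a1 and Id3 tend to be high where the sum is high (r 0.85 and 0.76 on the log2 scale), and Maf does not (r -0.04).

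Reads of some members may be shared with overlapping genes, since the sources used here do not say whether strand was used in counting. Maf overlaps the antisense model Gm15655, which had 20 diabetic and 4 non-diabetic UMIs beside 7260 diabetic and 2569 non-diabetic UMIs of Maf. Cebpb overlaps Tmem189 on the opposite strand, which had 4292 diabetic and 2956 non-diabetic UMIs beside 67903 diabetic and 38537 non-diabetic UMIs of Cebpb. Irf8 overlaps Gm20388 on its own strand, which had no UMI in either library.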

How the data were processed

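Single-cell 3′ RNA libraries were made from enzymatically digested wounds of 2 pooled mice per group, 1 library per group, per the labels' protocols. Groups came from the labelled disease state. The deposited files give the authors' raw counts of UMIs for each gene in each barcode, written by Cell Ranger 3.0.2 per the file headers. Reads were placed on mm10 according to the submitters' processing notes, and the sources used here do not give the annotation release.

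Kept cells had 500 or more genes and less than 10% mitochondrial UMIs. Raw UMIs were summed over the cells of a library, class or cluster and divided by that sum's total as CPM, with exact Poisson intervals. Log2 ratios had 0.5 added to each sum, with a conditional exact binomial interval, and the calculation was tested on simulated data. A gene was measured at 20 UMIs or more over both sides, and a difference was counted at 1.5-fold. Cells with at least 5000 UMIs were thinned to 5000 for the Ly6c2 and C1q classes. Clusters came from scanpy 1.11.5 with leidenalg 0.10.2 on 1993 variable genes, after 7 members were removed from them. Scrublet marked 4 diabetic and 2 non-diabetic cells, 0.228% and 0.178%, too few to count as a working doublet call, and no doublets were removed. Alternatives were other scalings (edgeR 4.0.16 TMM and DESeq2 1.42.0 size factors), filters, thresholds, seeds, clusterings and cells left out. Named genes were the 9 members, the 3 genes most alike each over the 18 groups, and up to 6 per list by level. Some clusters and genes are not reported here. Members and lists were chosen with earlier results of these data known. Promoters are from RefSeq (GRCm38.p6) and gene positions from GENCODE M21.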

Additional observations from a re-analysis of the deposited data

Results flagged for a closer look

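The libraries differed in opposite directions between cell classes or clusters for several members; none of these differences was tested, since each group is 1 library. The values are log2 ratios of diabetic to non-diabetic levels whose counting intervals leave out 0. Klf4 was higher in diabetic cells in the Ly6c2-positive C1q-low class (0.46), in cells positive for both (0.33) and in cells low for both (0.43), and lower in C1q-positive cells (-0.22, which turned to 0.08 without the Stfa3-led and Inhba-led clusters). Hes1 was higher in diabetic cells low for both (0.40, which turned to -0.04 without the same clusters) and lower in diabetic Ly6c2-positive C1q-low cells (-1.30).

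Within clusters, Maf was higher in diabetic Rsad2-led cells (0.45) and lower in diabetic Fabp4-led cells (-1.34). Spi1 was higher in diabetic Cd209a-led cells (0.20) and lower in diabetic Fabp4-led cells (-0.49). Cebpb was higher in diabetic Cd209a-led cells (0.18) and lower in diabetic Rsad2-led (-0.40) and Fabp4-led cells (-0.54). Hes1 was higher in diabetic Fabp4-led cells (2.37) and lower in diabetic Rsad2-led cells (-2.82), the last from 1 diabetic UMI. Without cells of 5 or more fibroblast or endothelial UMIs, the Fabp4-led values were -0.97 for Maf, -0.11 for Spi1, -0.20 for Cebpb and -0.28 for Hes1, and the intervals of Spi1 and Hes1 then contained 0.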

How the results depend on the processing

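No paired analysis was possible because each group is 1 library. Of 738 values of single members in all kept cells and in classes under alternatives, 221 were for members past 1.5-fold as reported. Of these, 208 stayed past it, 13 kept the direction under it and 0 reversed. These counts include the setting with no minimum UMI count in all kept cells, which leaves every member's ratio unchanged and so could not move it. The log2 ratio of diabetic to non-diabetic in all kept cells ranged from 0.70 to 1.49 for Id2, the highest without the Inhba-led cluster, and from -1.07 to -0.63 for Nr4a1. Members higher in diabetic cells numbered 2 in place of 1 with a filter of 1000 genes and 5% mitochondrial UMIs, and 2 without the Stfa3-led cluster; both added Maf (0.66 and 0.67). Members lower numbered 2 over all deposited barcodes and 2 with cells thinned to 5000 UMIs, which added Hes1 (-0.89 and -0.70), 3 without the Inhba-led cluster, which added Id3 (-0.61) and Hes1 (-0.68), and 2 without the Lyz1-led and Ighm-led clusters, which added Id3 (-0.80). For C1q-positive over Ly6c2-positive diabetic cells, members higher numbered 2 with Ly6c2 at 2 UMIs and 2 without the Cd163-led and Ighm-led clusters, each adding Id2 (0.62 and 0.65), and members lower numbered 0 with C1q at 1 UMI and 0 without those clusters (Hes1 -0.58 and -0.39). Without them Maf was at 1.07, and Nr4a1 and Id3, under 1.5-fold, turned to 0.41 and 0.23. Id2 in C1q-positive cells ranged from 0.47 to 1.09 and passed 1.5-fold in 8 of 11 alternatives, as did Id3 there (-1.09 to -0.55). Within the Fabp4-led cluster, Hes1 reversed from 2.37 to -0.28 without the cells of 5 or more stromal UMIs, since 3 such diabetic cells held 33 of its 37 UMIs. The other causes were not tested. The alternatives without the Cd163-led and Ighm-led, without the Lyz1-led and Ighm-led clusters, and without stromal cells were chosen after seeing the data. With no minimum UMI count, 26.1% of all genes were at least 1.5-fold higher and 21.8% lower in diabetic cells. Depth limits Hes1 most, with 2 UMIs in non-diabetic cells of the top C1q bin, and 1 library per group leaves the spread between mice unknown.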

Other observations

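Genes linked to Maf or to resident macrophages were higher in the diabetic library for 10 of 14 genes and lower for 0 at 1.5-fold (median log2 ratio 1.81), where 18.7% of all measured genes were higher. C1qb, a chain of complement C1q, was the gene of that list with the highest level. Mrc1, the mannose receptor, was at 340 CPM in diabetic and 165 CPM in non-diabetic cells. The list contains the C1q genes, and the C1q-positive class without Ly6c2 held 36.7% of diabetic and 16.4% of non-diabetic classed cells. Of 10 genes of Ly6C-low monocytes, 5 were higher and 0 lower in diabetic cells (median 0.53), where 12.9% of all measured genes were lower. The list includes Fabp4 and Cd36. In the Fabp4-led cluster, with 3 diabetic cells of 5 or more fibroblast or endothelial UMIs, it summed to 2736 CPM in diabetic and 643 CPM in non-diabetic cells. The list was not recounted without such cells, so their part was not tested. Cd36, a scavenger receptor, was at 232 CPM in diabetic and 125 CPM in non-diabetic cells, and Cx3cr1, the fractalkine receptor, at 37.0 CPM in diabetic and 51.7 CPM in non-diabetic cells.

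Of 31 other myeloid transcription factor genes, 4 were higher and 9 lower in all diabetic cells (median log2 ratio -0.38), against 18.7% higher and 12.9% lower over all measured genes. Nr4a2, a close relative of Nr4a1, was at 201 CPM in diabetic and 377 CPM in non-diabetic cells, and Atf3, a stress-induced factor that is also on the immediate early list, at 446 CPM in diabetic and 843 CPM in non-diabetic cells. Klf6 was at 608 CPM in diabetic and 928 CPM in non-diabetic cells, Zeb2, which represses other lineages in myeloid cells, at 945 CPM in diabetic and 1312 CPM in non-diabetic cells, and Hif1a, the hypoxia factor, at 709 CPM in diabetic and 559 CPM in non-diabetic cells. From Ly6c2-positive C1q-low to C1q-positive cells, 7 of the 31 were higher and 6 lower in the diabetic library, and 6 of 30 measured were higher and 3 lower in the non-diabetic library. Over all measured genes, 20.8% were higher and 7.47% lower in the diabetic library, and 20.2% higher and 7.7% lower in the non-diabetic library.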
